A study of Homo sapiens with 3 samples.

Results

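miR-221 and miR-222 are microRNAs (miRNAs) made from a pair of neighbouring hairpins on the X chromosome. Their levels were examined in MV4-11 cells, a human acute myeloid leukemia (AML) line with a FLT3 internal tandem duplication (FLT3-ITD) and the MLL-AF4 fusion. The members were chosen by name, as the hairpins hsa-mir-221 and hsa-mir-222 and all their arms. These were 2 of the 661 hairpins listed as primary transcripts and 4 of the 783 mature names, and every one of them had a row of its own in every library. All cells carried an empty-vector (EV) CRISPR-Cas9 lentivirus with no guide to a gene, their genotype was labelled WT, and RNA was taken after 2 weeks of growth. The 3 libraries were replicates of this 1 group, so hairpins, arms and replicates can be compared but no treatment can. Their titles number the replicates and do not say whether they were separate cultures.

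A miRNA hairpin is cut from a longer primary transcript by Drosha and then opened by Dicer into 5p and 3p arms, of which one is usually kept in an Argonaute protein. The kept arm finds messenger RNAs mainly through its seed, bases 2 to 8 from the 5′ end, and lowers their translation and stability. miR-221 and miR-222 are known in blood cells for acting on KIT, the receptor of stem cell factor, and both decline as red blood cell precursors mature. They also act on CDKN1B, an inhibitor of cyclin-dependent kinases, and are abundant in many tumours. KIT belongs to the same class of receptor tyrosine kinases as FLT3. No messenger RNA or protein was measured in these libraries, so the sequences below show what could pair and not what was repressed.

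The mature sequences show what the pair shares. They are given as RefSeq lists them, 5′ to 3′, with the seed in capitals. RefSeq gave 3 of the 4 arms, and miR-221-5p is named only.
hsa-miR-221-3p: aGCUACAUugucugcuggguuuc
hsa-miR-222-3p: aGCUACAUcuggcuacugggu
hsa-miR-222-5p: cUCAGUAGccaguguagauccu
miR-221-3p and miR-222-3p were identical over their first 8 bases. Of 21 positions set side by side from the 5′ end, 11 held the same base. Past the first 8 bases the longest run in common was CUGGGU, at bases 15 to 20 of miR-221-3p and 16 to 21 of miR-222-3p. Among 2370 mature human miRNAs in the RefSeq table, no other had the seed GCUACAU. With bases 2 to 7 alone the 3p arms matched 1 more, miR-187-5p, which had no row in the tables analysed here. No other miRNA had the seed of miR-222-5p, UCAGUAG.

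RefSeq places MIR221 at chrX:45746157-45746266 and MIR222 at chrX:45747015-45747124, both on the minus strand of GRCh38.p14 and each 110 bases long. MIR222 is thus transcribed first, and 748 bases lie between the hairpins. In GENCODE release 29, on GRCh38, both lie in an intron of 1 of the 2 listed transcripts of MIR222HG, a long noncoding RNA that serves as their host. Mature miR-221-3p covers bases 65 to 87 of its hairpin and miR-222-3p bases 69 to 89 of its own. The tables carry no coordinates, so these positions are those of the reference.

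The letters that pair with the shared seed, ATGTAGC, were looked for on the sense strand of the 3′ untranslated regions (UTRs) of KIT and CDKN1B, because these are the best known targets. The KIT UTR of 2158 bases in GENCODE 29 held them at 2 places, shown here with the 7 letters in capitals, 14 bases before them and 8 after. Positions are on GRCh38.
KIT, chr4:54739573-54739601, plus strand: tagtttggattcttATGTAGCaggaaata
KIT, chr4:54740502-54740530, plus strand: ttgtaaatattgaaATGTAGCaataatgt
The CDKN1B UTR of 1344 bases also held them at 2 places.
CDKN1B, chr12:12721214-12721242, plus strand: tctaaaagcgttggATGTAGCattatgca
CDKN1B, chr12:12721287-12721315, plus strand: agtttttaccttttATGTAGCacataaac
In all 4 an A followed the letters, opposite the first base of the miRNA. Over the first 2158 bases of the 4510 human UTRs at least that long, 10.8% held the letters at least once and 0.687% at least 2 times. Over the first 1344 bases of 7180 UTRs these shares were 6.64% and 0.265%. A match of letters is a description and does not show that a site was used in these cells.

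The libraries held 12694823, 10991953 and 11682129 counts of mature rows in replicates 1, 2 and 3. Levels are the FPKM that the authors deposited, in which both the size of a library and how long a miRNA is are divided out. Shares are of the counts and, where small, are given in CPM, counts scaled to the same total in each library. Replicate 1 stood apart from the other two. The median log2 FPKM ratio of all mature miRNAs was 0.48 for replicate 2 over 1 and 0.57 for 3 over 1, but 0.09 for 3 over 2. Values without replicate 1 are therefore given beside those with it. All 4 blood and myeloid markers (both arms of miR-142 and of miR-223) were listed, with means of 110079 to 528779 FPKM. Of 9 markers of liver, muscle, neural, epithelial and stromal cells 7 were listed, with means of 231 to 55618 FPKM, miR-124-3p of neural cells being the highest, and 2, miR-206 and miR-205-5p, had no row. The summed FPKM of these 7 ran from 47712 to 110519 over the libraries and that of the blood markers from 553617 to 1483860. The part of such markers in any value below was not tested.

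The 4 arms made up 1.30%, 2.27% and 2.80% of mature counts in replicates 1, 2 and 3, or 2.12% ± 0.760 (SD, n = 3). Most of it was the 3p arms, which carry the common seed. Their summed level was 944675 ± 346359 FPKM (SD, n = 3). miR-221-3p was 48.2%, 64.4% and 65.0% of the counts of the 4 arms in replicates 1, 2 and 3, and miR-222-3p was 44.1%, 30.5% and 30.6%. miR-221-5p was 7.57%, 4.96% and 4.21%, and miR-222-5p was 0.107%, 0.124% and 0.137%. Replicate 1 thus differed from the others in the make-up of the family as well as in its sum.

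miR-221-3p, the leading product of MIR221, had 284395, 663307 and 826268 FPKM in replicates 1, 2 and 3, from 79444, 160437 and 212405 counts. Replicate 1 was the low one by a wide margin. As a share of the mature counts it was 6258, 14596 and 18182 CPM in that order. The Wilson 95% intervals were 6215 to 6302, 14525 to 14667 and 18106 to 18259 CPM. They cover counting error only, as no molecular identifiers mark PCR copies, and none overlapped another. The mean was 591323 ± 278015 FPKM (SD, n = 3), or 744787 without replicate 1. It ranked 16 of 783 mature miRNAs. The next above were miR-24-3p (771176 ± 259282 FPKM) and miR-103a-3p (765472 ± 299500 FPKM), and the next below were miR-93-5p (570290 ± 347830 FPKM) and let-7a-5p (544905 ± 91012 FPKM; each SD, n = 3). None of these means differed from that of miR-221-3p by more than the larger SD. Within libraries, however, miR-24-3p and miR-103a-3p were above miR-221-3p in each library. The order against miR-93-5p and let-7a-5p changed between libraries, so the place of miR-221-3p beside these is not resolved.

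miR-222-3p, the leading product of MIR222, was steadier. It had 286219, 345825 and 428009 FPKM in replicates 1, 2 and 3, from 72685, 76042 and 100024 counts. The share was 5726 CPM (Wilson 95% interval 5684 to 5767), 6918 CPM (6869 to 6967) and 8562 CPM (8509 to 8615). Replicate 1 was again the lowest, but the highest library exceeded it by 0.58 on the log2 scale, against 1.54 for miR-221-3p. The mean was 353351 ± 71194 FPKM (SD, n = 3), 386917 without replicate 1, and it ranked 26 of 783. Its neighbours in rank, miR-101-3p and miR-425-5p above and miR-378a-3p and miR-9-5p below, had means of 375564, 353435, 347358 and 340814 FPKM, all closer than the larger SD.

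The 5p arms were the minor products, and they differed from each other far more than the 3p arms did. miR-221-5p had 46747, 53482 and 56003 FPKM from 12465, 12348 and 13742 counts, a mean of 52077 ± 4785 (SD, n = 3) and rank 78, or 54743 without replicate 1. It was the most even of the 4 arms, with 0.26 on the log2 scale from the lowest to the highest library. miR-222-5p had 664, 1334 and 1822 FPKM from 177, 308 and 447 counts, a mean of 1273 ± 581 (SD, n = 3) and rank 265, or 1578 without replicate 1. Its Wilson 95% intervals were 12.0 to 16.2, 25.1 to 31.3 and 34.9 to 42.0 CPM, so the libraries differed beyond counting error although the counts were low. The ratio of miR-221-5p to miR-222-5p was 70.4, 40.1 and 30.7 in replicates 1, 2 and 3.

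**Figure D1:**
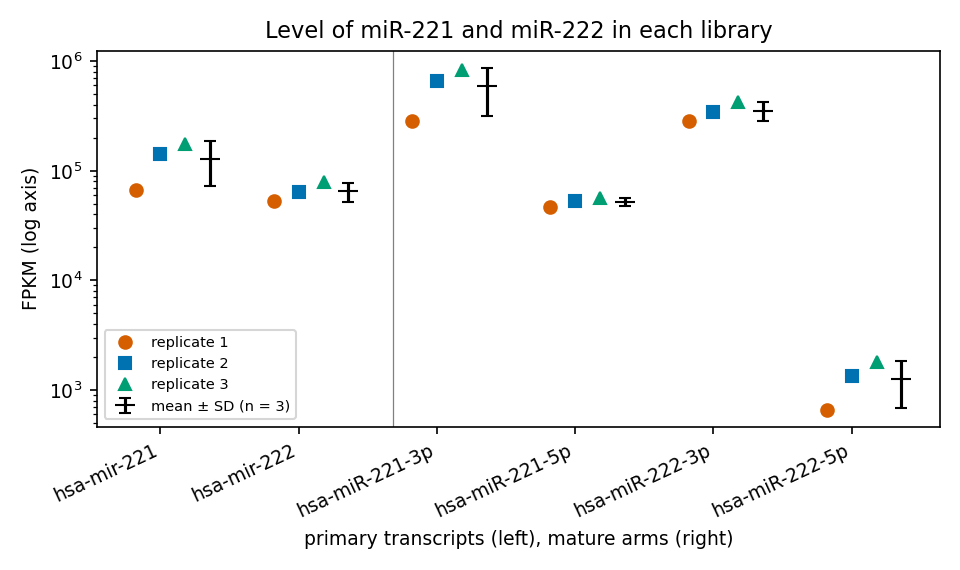
FPKM (log axis) of the primary transcripts and the 4 mature arms in each library, with colour and shape for the replicate and a black bar for mean ± SD (n = 3). Replicate 1 is the lowest for all 6 features, and the gap is widest for hsa-miR-221-3p, which runs from 284395 to 826268 FPKM.

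The hairpin rows gave the same picture. hsa-mir-221 had 66284, 143820 and 177114 FPKM in replicates 1, 2 and 3, from 91939, 172824 and 226218 counts. Its mean was 129073 ± 56868 FPKM (SD, n = 3), 160467 without replicate 1, and it ranked 17 of 661. hsa-mir-222 had 52624, 63650 and 78796 FPKM, from 72992, 76486 and 100641 counts, with a mean of 65023 ± 13140 (SD, n = 3), 71223 without replicate 1, and rank 35. Both rows count small RNA reads that fall on the hairpin, so they are not levels of the long primary RNA.

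Whether the pair was made in a fixed proportion was asked with the ratio of the members within each library. The count ratio of hsa-mir-221 to hsa-mir-222 was 1.26, 2.26 and 2.25, with Wilson 95% intervals of 1.25 to 1.27, 2.24 to 2.28 and 2.23 to 2.26 in the order of the replicates. Replicates 2 and 3 could not be told apart at this depth, since their intervals overlapped, whereas replicate 1 lay well below. hsa-mir-221 was the higher in 3 of 3 libraries. The mean log2 ratio was 0.89 ± 0.48 (SD, n = 3), and 1.17 without replicate 1. Among 44 adjacent hairpin pairs with at least 100 counts of both in every library, 33 had a smaller SD of this ratio over libraries, and the median SD was 0.29. This spread rested on replicate 1. Without it the SD was 0.0053, 1 of the 44 pairs had a smaller one, and the median was 0.08.

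Between the 3p arms alone the count ratio of miR-221-3p to miR-222-3p was 1.09, 2.11 and 2.12, with Wilson 95% intervals of 1.08 to 1.10, 2.09 to 2.13 and 2.11 to 2.14. In FPKM it was 0.994, 1.92 and 1.93. The scale matters in replicate 1, where miR-221-3p was slightly higher in counts and slightly lower in FPKM. The deposited FPKM divide by lengths of 22 and 20 bases, against 23 and 21 in the RefSeq sequences. Within libraries the mean log2 FPKM ratio of the 3p arms was 0.63 ± 0.55 (SD, n = 3). It was -0.0092, 0.94 and 0.95 in replicates 1, 2 and 3, so miR-221-3p was not the higher in replicate 1.

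**Figure D2:**
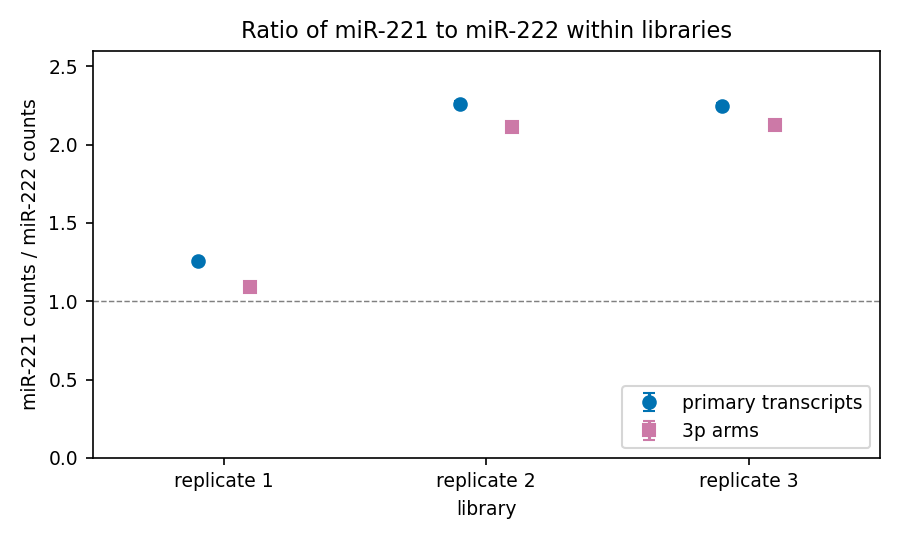
Counts of miR-221 divided by counts of miR-222 in each library, for primary transcripts (circles) and 3p arms (squares), with Wilson 95% intervals that are smaller than the symbols. The dashed line marks equal counts. Both ratios are near 1 in replicate 1 (1.26 and 1.09) and above 2 in replicates 2 and 3.

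For comparison, hairpins that follow each other within 10000 bases on a strand were tested in the same way. Of the 661 hairpins 523 were matched to a single RefSeq hairpin, which gave 70 such pairs. The edgeR quasi-likelihood test was fitted to all of them, with the library as a block and the downstream hairpin over the upstream one as the ratio. Of the pairs, 53 (75.7%) had an adjusted p under 0.05 and a log2 ratio of at least 1 in size. With the adjusted p alone the count was 61 (87.1%). The pair of hsa-mir-221 over hsa-mir-222 had a log2 ratio of 0.89 ± 0.25 (edgeR SE, adjusted p = 0.0221), so it passed the limit on p and not that on size. Its adjusted p did not stay under 0.05 throughout. It was 0.224 without replicate 2, 0.136 without replicate 3 and 0.0869 with TMM factors, but 0.00167 without replicate 1, where the log2 ratio of 1.17 also passed the limit on size. In size the ratio was modest, as 11 of the 70 pairs had a smaller one and the median was 2.16. An exact sign-flip test over 3 libraries cannot give a p below 0.25 and was not made.

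Which arm each hairpin left in the cell was compared within libraries. For MIR221, miR-221-5p was 13.6%, 7.15% and 6.08% of the counts of both arms. The Wilson 95% intervals were 13.3 to 13.8, 7.03 to 7.27 and 5.98 to 6.18. The 3p arm was thus above the 5p arm by 6.37-, 13.0- and 15.5-fold in counts, and replicate 1 again stood off. For MIR222, miR-222-5p was 0.243%, 0.403% and 0.445%, with Wilson 95% intervals of 0.210 to 0.281, 0.361 to 0.451 and 0.406 to 0.488. The 3p arm of MIR222 exceeded the 5p arm by 411-, 247- and 224-fold in counts.

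The edgeR quasi-likelihood test was fitted to all 196 hairpins with both arms listed, of which 81 (41.3%) were called toward 3p. Both members were called, in 3 of 3 libraries each. For MIR221 the log2 ratio of 5p to 3p was -3.44 ± 0.32 (edgeR SE, adjusted p = 0.00019). For MIR222 it was -8.14 ± 0.33 (edgeR SE, adjusted p = 1.14e-05). A larger preference for 3p was found for 44 hairpins in the case of MIR221 and for 5 in that of MIR222, and the median size over all 196 was 3.13. Without replicate 1 the values were -3.82 and -7.87. From replicate 1 to the others the share of the 5p arm was lower for MIR221 and higher for MIR222. The SD of the arm ratio over libraries was 0.68 for MIR221 and 0.47 for MIR222 on the log2 scale, against a median of 0.45 over 82 hairpins with at least 100 counts of both arms in every library. Without replicate 1 these SDs were 0.18 for MIR221 and 0.10 for MIR222, against a median of 0.16.

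**Figure D3:**
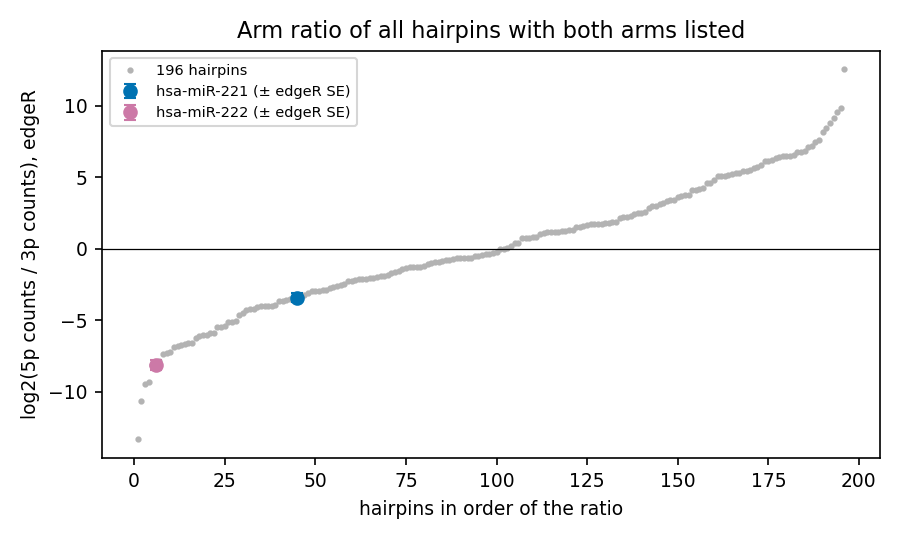
log2 ratio of 5p to 3p counts from the edgeR fit for 196 hairpins, ordered from the strongest preference for 3p to that for 5p (grey), with hsa-miR-221 and hsa-miR-222 in colour and bars for the edgeR SE. Both members lie below 0, at -3.44 and -8.14, and only 5 hairpins lie below miR-222.

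Few reads fell on the hairpins outside the listed arms. For hsa-mir-221 they were 30, 39 and 71 counts in replicates 1, 2 and 3, or 0.0326%, 0.0226% and 0.0314% of the hairpin. For hsa-mir-222 they were 130, 136 and 170 counts, or 0.178%, 0.178% and 0.169%. The Wilson 95% intervals of the members did not overlap in any library, with at most 0.0466% for hsa-mir-221 and at least 0.145% for hsa-mir-222. The median over 183 hairpins with both arms listed once was 0.0462%, between the members' means of 0.0289% ± 0.00549 and 0.175% ± 0.00522 (SD, n = 3). In replicate 1 the 130 counts of hsa-mir-222 outside its arms stood against 177 counts of miR-222-5p itself.

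The shift between libraries was set beside that of all miRNAs. On the log2 FPKM scale miR-221-3p was higher by 1.22 in replicate 2 and by 1.54 in replicate 3 than in replicate 1, where the medians over 781 mature miRNAs were 0.48 and 0.57. Between replicates 2 and 3 the difference was 0.32, beside a median of 0.09. miR-222-3p was higher by 0.27 and 0.58 in replicates 2 and 3 than in replicate 1, and by 0.31 in replicate 3 than in replicate 2. miR-221-5p moved by 0.19 and 0.26, and miR-222-5p by 1.01 and 1.46, against replicate 1. So the 3p arm of MIR221 and the 5p arm of MIR222 stood above the general shift in both libraries. Many other miRNAs moved further. Of the 781, 80.0% in replicate 2 and 83.0% in replicate 3 lay below miR-221-3p, and 73.4% and 81.4% lay below miR-222-5p. miR-221-5p stood below it in both, and miR-222-3p below it in replicate 2 and level with it in replicate 3. Between replicates 2 and 3 the 3p arms moved together, by 0.32 and 0.31.

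The coefficient of variation over 3 libraries was 47.0% for miR-221-3p, 20.1% for miR-222-3p, 9.19% for miR-221-5p and 45.7% for miR-222-5p. The median over all 783 names was 32.5%. Of 163 mature miRNAs with at least 1000 counts in every library, 136 varied less than miR-221-3p, 68 less than miR-222-3p and 29 less than miR-221-5p. miR-222-5p was not among these 163. The contrast between the 3p arms rested on replicate 1. Without it the coefficient of variation was 15.47% for miR-221-3p, 15.02% for miR-222-3p, 3.26% for miR-221-5p and 21.9% for miR-222-5p, beside a median of 13.7% over all names. Of the 163, 127 then varied less than miR-221-3p and 122 less than miR-222-3p, while 34 varied less than miR-221-5p.

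**Figure D4:**
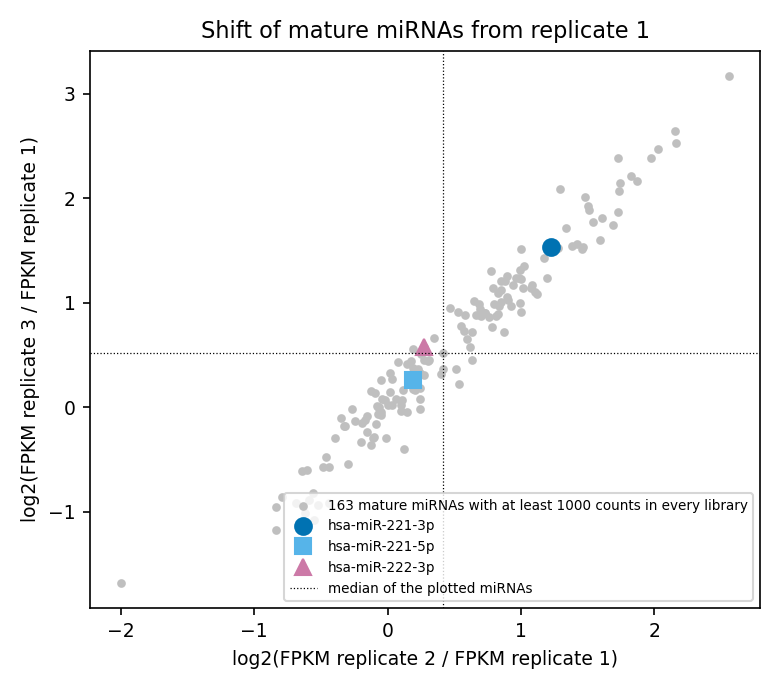
log2 FPKM ratio of replicate 2 to replicate 1 (x) and of replicate 3 to replicate 1 (y) for 163 mature miRNAs with at least 1000 counts in every library (grey), with 3 arms of the members in colour and dotted lines at the medians. hsa-miR-221-3p lies at 1.22 and 1.54, above both medians (0.41 and 0.52). hsa-miR-221-5p (0.19 and 0.26) lies below both, and hsa-miR-222-3p (0.27 and 0.58) lies below the first and slightly above the second.

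The miRNAs whose pattern over the 3 libraries was closest to each 3p arm were taken from the same 163. Likeness was the root mean square difference of log2 CPM, each centred on its own mean. With 3 libraries of 1 group it describes how values followed the libraries and no more. Closest to miR-221-3p were miR-9-3p at 0.03, miR-30b-5p at 0.04 and miR-361-5p at 0.07. Closest to miR-222-3p were miR-941 at 0.02, miR-92b-3p at 0.03 and miR-191-3p at 0.03. Over all 3 libraries the members were not close to each other. miR-222-3p was at 0.45 from miR-221-3p, which made it number 77 of 162 in the order of likeness to miR-221-3p. In the order of likeness to miR-222-3p, miR-221-3p was number 121, while miR-221-5p was at 0.14 and number 22. The distance between the 3p arms rested on replicate 1. From replicate 2 to replicate 3 they moved together, by 0.32 and 0.31 on the log2 FPKM scale. The median distance to miR-221-3p was 0.47 and that to miR-222-3p was 0.27.

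Other miRNAs known to act on the same targets were set beside the pair. Of 5 listed for KIT, miR-193a-3p, miR-193b-3p, miR-494-3p, miR-218-5p and miR-137, only the first and the second had a row. miR-193a-3p had 473, 472 and 420 FPKM in replicates 1, 2 and 3. miR-193b-3p had 41.1 ± 16.7 FPKM (SD, n = 3), from 16, 8 and 7 counts. Against miR-193a-3p, miR-221-3p was higher by 602- to 1968-fold and miR-222-3p by 606- to 1020-fold within libraries. These ratios are far beyond the spread of the libraries, and both 3p arms were higher than both in 3 of 3 libraries.

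For CDKN1B all 4 of the list had a row. miR-148a-3p was above the pair, with 3677134, 2395599 and 1826500 FPKM in replicates 1, 2 and 3. miR-24-3p, which is made from 2 hairpins whose rows were summed, had 473718, 949337 and 890473 FPKM. It was above both 3p arms in each library, though its mean lay within an SD of that of miR-221-3p. miR-152-3p, which shares its family with miR-148a-3p, had 37535, 59467 and 69051 FPKM, so miR-221-3p was higher by 7.58- to 12.0-fold and miR-222-3p by 5.82- to 7.63-fold. miR-196a-5p had a mean of 1609 ± 571 FPKM (SD, n = 3), below both. The pair thus lay between the members of this list, and well above those of the KIT list that were detected.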

How the data were processed

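Small RNA from EV-infected MV4-11 cells was prepared as 3 replicate libraries with an NEB kit and sequenced on an Illumina HiSeq. The authors counted aligned reads over miRBase 21 mature miRNAs and hairpins, and deposited whole read counts and FPKM for both. The submitters' processing notes name Novoalign 2.08.03 and the builds hg19 and mm10, with no role. No count or FPKM was changed here, except that mature rows with the same name were summed. Deposited FPKM were the counts divided by a whole-number length and, in order of the replicates, a total of 12697428, 10994290 and 11684801 reads for mature rows.

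Ratios within libraries were tested on the deposited counts with the edgeR 4.0.16 quasi-likelihood test in R 4.3.3 over all pairs, with Benjamini-Hochberg adjustment. Calls needed an adjusted p under 0.05 and a log2 ratio of at least 1. Adapters ligate unequally to different sequences, so ratios between miRNAs are ratios of reads and not of molecules. Library totals were offsets, with hairpin length added for adjacent hairpins. Some of these pairs share a hairpin, and a hairpin with no RefSeq match could lie between. In simulated data 60 of 60 altered arm pairs and 20 of 20 altered hairpin pairs were recovered, with 0 false calls. All altered ratios were set above the limit on size, and all other pairs were set equal. Ratios near the limit were not simulated, and no library was made to stand apart in the ratios. The recovery thus says nothing of such cases. limma 3.58.1 and DESeq2 1.42.0 were alternatives. Wilson intervals and summaries used Python 3.11.15, scipy 1.17.1, numpy 2.4.6 and pandas 2.3.3, and plots matplotlib 3.10.9.

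The members and lists were chosen with earlier results of these data known. By rule, the text names the members, the 3 closest patterns, the 2 neighbours in rank on each side, miRNAs with a member's seed, and the listed miRNAs of KIT, CDKN1B and cell types. The search of the KIT and CDKN1B UTRs and the 100-count minimum for the spread of ratios were added after the data were seen. UTRs came from the APPRIS principal transcript with the longest UTR of each gene.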

Additional observations from a re-analysis of the deposited data

How the results depend on the processing

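Of 125 values recomputed under the alternatives, 104 kept their direction and side of the threshold or stayed within the limit set for them, 18 moved further, 3 no longer passed and 0 reversed. Several settings could hardly change a value, such as the hairpin ratio from counts in place of FPKM, so the 104 do not measure stability. For hsa-mir-221 over hsa-mir-222 among adjacent hairpins, the log2 ratio of 0.89 ranged from 0.75 to 1.17 with a replicate left out and was 0.46 with TMM factors. It did not pass the limit on the adjusted p without replicate 2, without replicate 3 and with TMM factors. For this pair the side of the threshold was that of the adjusted p alone. Without replicate 1 the ratio of 1.17 also came to pass the limit on size, so the pair was called, and this value is among the 104. The TMM factors were computed with the sides of the pairs as separate columns, so they act on the tested ratio itself. Why it did not pass without replicate 2 or without replicate 3 was not tested. The count of adjacent pairs called was 31 with starts at most 1000 bases apart, where 43 pairs were tested against 70. TMM factors also moved the split of these calls, from 30 downstream and 23 upstream to 22 and 28. They moved the median log2 ratio of all pairs from 0.14 to -0.30 for hairpins and from -0.34 to -1.01 for arms. By number, arm calls were 158 with limma, 162 with DESeq2 and 167 with TMM factors against 161, and the members were called toward 3p under each alternative run. With the median taken over features with at least 1000 counts, the shift of replicate 3 over 1 beyond the median was 1.02 in place of 0.97 for miR-221-3p, 0.06 in place of 0.01 for miR-222-3p, 0.85 in place of 0.94 for hsa-mir-221 and 0.02 in place of 0.10 for hsa-mir-222. For replicate 2 over 1 it was 0.81 in place of 0.75, -0.14 in place of -0.20, 0.73 in place of 0.75 and -0.11 in place of -0.09, in that order. The coefficients of variation and the SDs of ratios without each replicate were chosen after seeing the data. The SD of the log2 ratio of hsa-mir-221 to hsa-mir-222 ranged from 0.0053 to 0.60, and the coefficient of variation of miR-221-3p from 15.5% to 69.0%. With 3 libraries, leaving 1 out cannot move a mean level by as much as its SD, so the levels without a replicate say nothing of stability. Arms and hairpins were paired within libraries by the library block in each test. Groups could not be paired, as the series has 1. Depth limits miR-222-5p (177 to 447 counts) and miR-193b-3p (7 to 16 counts).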
